A study of Mus musculus with 32 samples.

Results

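Astrocyte genes were followed as a set of 10 among the 53715 genes of the count tables: Gfap, Aqp4, Aldh1l1, Slc1a2, Slc1a3, Gja1, Gjb6, Aldoc, S100b and Sox9. They were chosen by name, as genes known to mark astrocytes, and were found by gene identifier in the mouse annotation GENCODE M21. All 10 had counts above 0 in each of the 32 libraries.

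Astrocytes are the glial cells that clear glutamate and potassium from around synapses, supply neurons with metabolites and wrap blood vessels with their endfeet. They form a network through gap junctions, and their intermediate filament protein GFAP becomes more abundant when they react to injury or disease. Astrocytes differ between brain regions, and the hippocampus is known for strong GFAP staining.

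The libraries were mRNA-seq of the amygdala (AMY) and the hippocampus (HIP) from the same 16 adult male mice, 4 of each genotype. WT animals were compared with Kmt2a-HET, which carry 1 copy of Kmt2a with a germline exon deletion made with ROSA26-CreERT2 and 1 normal copy, with Kdm5c-KO, hemizygous males that lack the X-linked gene Kdm5c, and with DM, which carry both mutations. KMT2A writes and KDM5C removes methylation at lysine 4 of histone H3. All animals were F1 hybrids of 129S1/SvImJ fathers and C57BL/6J mothers, and both alleles were constitutive, so that neurons, astrocytes and every other cell type carried them.

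Libraries held 19215503 to 27798980 gene counts, and the 10 genes together took 0.443% to 0.714% of them. Markers of the hippocampus summed to 28 to 68 CPM (counts scaled to library depth) in AMY and to 248 to 695 CPM in HIP libraries. The deletions removed part of each target gene, so whole-gene counts check the labels only in part: Kdm5c averaged 1570 normalised counts in WT and 1259 in Kdm5c-KO AMY, and 1640 and 1296 in HIP. Kmt2a averaged 4076 in WT and 4107 in Kmt2a-HET AMY, and 4468 and 5172 in HIP. The libraries numbered 1, 1 for each genotype and region, stood apart from the others. In the labels their animals have lower numbers than all other animals with a plain number. Whether this marks a batch was not tested. In them genes with under 3000 exon bases were higher, by a median of 0.20 in AMY and 0.16 in HIP on the log2 scale, and genes with over 8000 exon bases differed by -0.22 and -0.16. Values without these 8 libraries are given where leaving them out changed the call of a member. Choroid plexus markers were uneven as well, at 51 to 85 CPM in 14 AMY libraries, 368 and 1882 CPM in DM libraries 3 and 1, and 39 to 4667 CPM in HIP libraries. In bulk tissue, fewer astrocytes and less RNA per astrocyte cannot be told apart.

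Sequences are shown for Gfap, the gene on which the results turn. Gfap lies on the minus strand at chr11:102887336-102900912 (mm10). The 250 bases before its RefSeq start, at chr11:102897201-102897450 (RefSeq, GRCm38.p6, minus strand), are printed 5′ to 3′ with CG dinucleotides, the sites of most DNA methylation, in capitals.
Gfap promoter: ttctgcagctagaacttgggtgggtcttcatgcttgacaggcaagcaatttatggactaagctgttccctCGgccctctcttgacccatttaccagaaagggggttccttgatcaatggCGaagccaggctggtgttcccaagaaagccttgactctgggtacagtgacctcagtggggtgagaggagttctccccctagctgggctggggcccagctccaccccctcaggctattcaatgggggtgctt
This window held 2 CG, against a median of 6 and quartiles of 2 and 16 over 32851 such windows of all genes. RefSeq windows were matched for 8 of the 10 genes, 9 windows in all, and 8 of the 9 held 6 CG or fewer. The windows of Gfap, Aldh1l1 and Slc1a2 and 1 of the 2 Aldoc windows lie inside the annotated genes. Those of Gfap and Aldh1l1 end 69 and 12 bases from the start of the transcript with most counts, and that of Slc1a2 ends 47779 bases from it. Of the Aldoc windows, 105 and 136 bases are in annotated exons. The reference sequence is that of C57BL/6J, and the mice also carried alleles of the other strain.

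Gfap makes transcripts that end in different exons and therefore code for different protein tails. The last 30 coding bases of the 2 measured forms (GENCODE M21, mm10, minus strand) are shown with the stop codon in capitals, Gfap-201 at chr11:102888677-102888706 and Gfap-202 at chr11:102891396-102891425.
Gfap-201: aagcaggagcacaaggacgtggtgatgTGA
Gfap-202: gaaaatggagccctgccagctctccctTAG
Gfap-201 took 95.9% of the Gfap transcript counts in AMY and 95.8% in HIP, and Gfap-202 took 4.12% and 4.17%. Gfap-201 was thus the main form in both regions. The transcript estimates of Aldoc were split between Aldoc-202, at 65.6% in AMY and 64.4% in HIP, and Aldoc-201, at 34.3% and 35.5%. For Slc1a2, Slc1a2-202 took 99.2% and 98.2%.

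Levels per length, in fragments per exon length and library depth (FPKM), put Aldoc and Slc1a2 on top. Aldoc, the aldolase of brain glycolysis, averaged 287 ± 32.2 FPKM (SD, n = 16 libraries) in AMY and 227 ± 31.9 in HIP. Slc1a2, the main glutamate transporter of the forebrain (GLT-1), averaged 198 ± 29.5 and 265 ± 47.4 FPKM. The ranges of these 2 genes overlapped in both regions.
Slc1a3, the second astrocyte glutamate transporter (GLAST), stood at 74.1 and 66.1 FPKM, and Gfap at 56.0 and 97.9. S100b, a calcium-binding protein, followed with 49.4 and 33.4 FPKM. Aldh1l1 (folate metabolism), Gja1 and Gjb6 (the gap junction proteins connexin 43 and 30) and Aqp4 (the endfoot water channel) lay between 17.8 and 20.6 FPKM in AMY and between 12.6 and 17.4 in HIP, with Gjb6 lowest of these 4 in both regions. Sox9, a transcription factor of the astrocyte lineage, was lowest at 12.01 and 11.2 FPKM. With lengths taken from the measured transcripts, Aldoc was first and Sox9 last in both regions, and Gja1 moved from rank 7 in AMY and rank 6 in HIP to rank 5.

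The comparison of the regions asks how astrocyte genes differ between hippocampus and amygdala. Gfap and Slc1a2 were higher in HIP, and Aldh1l1, Gjb6 and S100b were lower. DESeq2 with Benjamini-Hochberg adjustment called 5 of the 10 genes in WT (21.2% of all tested genes), 6 for Kmt2a-HET (29.6%), 4 for Kdm5c-KO (24.0%) and 5 for DM (27.1%), at an adjusted p under 0.1. The regions of a mouse are paired, and the fit with the mouse as a term is given where it changed a call.
Gfap in WT was 5268, 3815, 3859 and 3584 normalised counts in AMY and 9053, 8557, 7407 and 5240 in HIP. The lowest HIP library lay just under the highest AMY library, and all other HIP libraries lay above. Gfap was higher in HIP in 16 of 16 mice. The log2 fold change was 0.87 ± 0.15 (SE) for WT (adjusted p = 4.32e-07), 0.72 for Kmt2a-HET (adjusted p = 3.17e-05), 0.92 for Kdm5c-KO (adjusted p = 5.51e-08) and 1.13 for DM (adjusted p = 9.55e-12).
Slc1a2 (chr2:102658659-102790784, plus strand) in WT was 49302, 48987, 62693 and 63969 normalised counts in AMY and 67059, 92463, 68989 and 78068 in HIP. These groups did not overlap, and Slc1a2 was higher in HIP in 16 of 16 mice. Its log2 fold changes were 0.45, 0.63, 0.42 and 0.60 in the same order, with adjusted p of 0.0246, 0.00032, 0.0363 and 0.000723. Without mouse 2 the WT value was 0.28 (adjusted p = 0.345), and the Kdm5c-KO call was lost without mouse 2 (0.35) or mouse 4 (0.39). Slc1a3, the other glutamate transporter, was not called, with log2 fold changes between -0.12 and 0.01.
Of the gap junction genes, Gjb6 (chr14:57123303-57133611, minus strand) fell by 0.33, 0.48, 0.38 and 0.32 on the log2 scale in WT, Kmt2a-HET, Kdm5c-KO and DM, and was lower in HIP in all 16 mice. Its adjusted p (DESeq2) was 0.0698, 0.00278, 0.0293 and 0.0647. The Gjb6 call was lost in WT without mouse 2, 3 or 4, in Kdm5c-KO without mouse 3, and in DM without mouse 1, 2 or 4. Gja1 had log2 fold changes between -0.15 and -0.03. With the mouse as a term, Gja1 was called in WT (-0.14, adjusted p = 0.0657) and in Kmt2a-HET (-0.15, adjusted p = 0.0408).
Aldh1l1 (chr6:90486427-90600203, plus strand) was lower in HIP in all 16 mice, with log2 fold changes of -0.36, -0.52, -0.36 and -0.37 in the same order and adjusted p of 0.0393, 0.000684, 0.0323 and 0.026. Without the libraries numbered 1 the WT value was -0.25 and not called (adjusted p = 0.194). Aldoc passed the test in Kmt2a-HET (-0.37, adjusted p = 0.0188) and stood between -0.22 and -0.16 in the other genotypes. It was lower in HIP in all but 1 mouse.
S100b (chr10:76253853-76261159, plus strand) overlaps Dip2a on the other strand, and whether the counting used strand is not given in the sources used here. S100b fell by 0.47 in WT, 0.56 in Kmt2a-HET and 0.42 in DM, with adjusted p (DESeq2) of 0.0493, 0.00986 and 0.0723. The S100b call was lost in WT without mouse 1, 2 or 3, in Kmt2a-HET without mouse 4, and in DM without mouse 1 or 4. In Kdm5c-KO its log2 fold change was -0.37 (adjusted p = 0.138), which passed with the mouse as a term (adjusted p = 0.00478) and without the libraries numbered 1 (-0.46, adjusted p = 0.052). S100b was lower in HIP in all 16 mice. Aqp4 and Sox9 were not called in any genotype, and were higher in HIP in 7 and 8 of the 16 mice.
Markers of other cell types differed between the regions as well. Of 14 neuron markers, 5 were higher and 5 lower in WT HIP, with Gad2 and Slc32a1, of inhibitory neurons, at -1.66 and -1.58, and their summed level was 8402 to 9136 CPM in AMY and 9788 to 10294 CPM in HIP. Of 4 oligodendrocyte precursor markers 3 were lower, with Cacng4 at -1.57, and sums of 265 to 296 CPM in AMY and 156 to 183 CPM in HIP. Choroid plexus markers were called higher for 2 of 8, and fibroblast and meningeal markers lower for 3 of 6. None of the 10 oligodendrocyte, 11 microglia and 10 endothelial and mural markers was called in WT. The part of these markers in the region results was not tested.
The directions are relative to the RNA of each region. Under size factors from the ERCC spike-in RNA, the median of all genes was 0.42 to 0.89 higher in HIP, Gfap was still called higher in each genotype, and Aldh1l1 and Gjb6 had log2 fold changes above 0 in each genotype. Leaving out 1 mouse also mattered: the WT count was 3, 2 and 2 without mice 1, 2 and 3, the Kdm5c-KO count was 2 without mouse 3, and the DM count was 2 and 3 without mice 1 and 4.

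**Figure D1:**
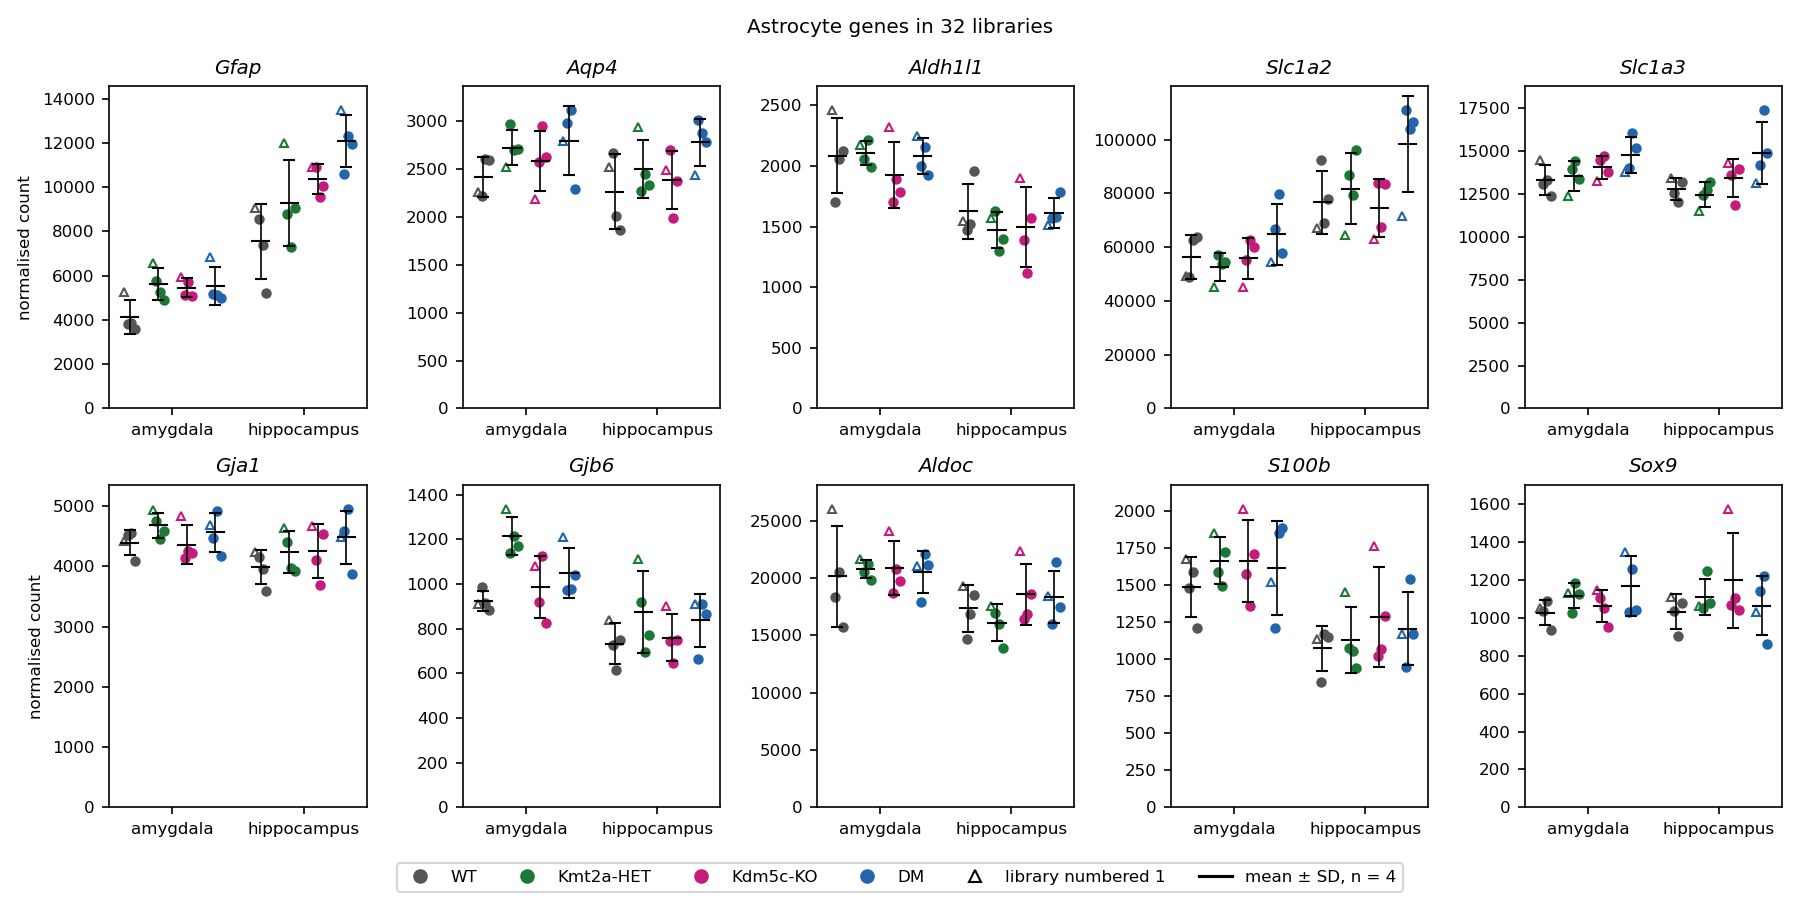
Normalised counts (y axes, from 0) of the 10 astrocyte genes in the 32 libraries, by region and genotype, with mean ± SD of 4 libraries in black and libraries numbered 1 as open triangles. Gfap and Slc1a2 stand higher in the hippocampus, and WT Gfap spans 3584 to 5268 in amygdala libraries and 5240 to 9053 in hippocampus libraries.

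**Figure D2:**
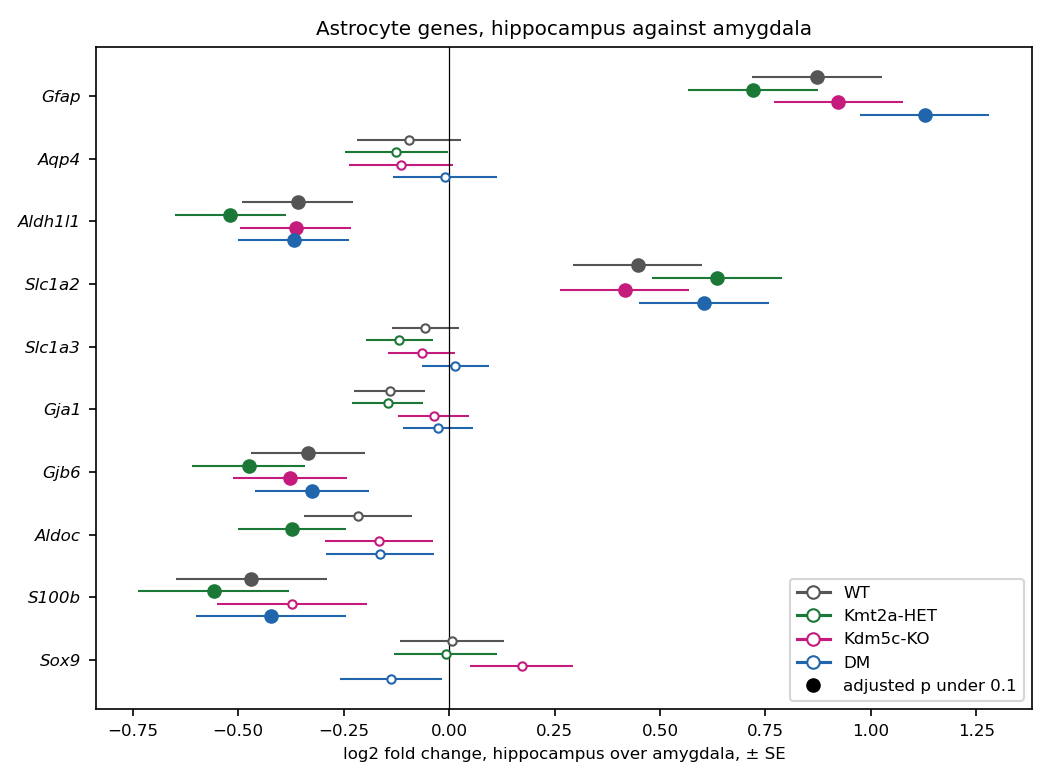
Log2 fold change of hippocampus over amygdala (x axis, ± SE) for each astrocyte gene (y axis) in the 4 genotypes, with filled points for an adjusted p under 0.1. Gfap lies between 0.72 and 1.13 and Slc1a2 between 0.42 and 0.63, while Aldh1l1, Gjb6 and S100b lie below 0.

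Further astrocyte genes were measured for the same comparison. Of 30 other astrocyte genes, 1 was higher and 14 were lower in WT HIP (15 of 30, against 21.2% of all tested genes), with a median log2 fold change of -0.27 against -0.02 for all genes. The share called was 56.7% for Kmt2a-HET (29.6% of all tested genes), 40.0% for Kdm5c-KO (24.0%) and 33.3% for DM (27.1%). In WT, Slc6a11, a GABA transporter, fell by 1.53, Atp1b2, a sodium pump subunit, fell by 0.32, and Gldc, of the glycine cleavage system, rose by 0.80. Of 20 astrocyte transcription factors and Notch targets, 7 were higher and 4 lower in WT (55.0%; 60.0% to 70.0% in the mutants), led by Nfix (1.78), Nfib (1.35) and Id4 (-0.99). These factors are also expressed in neurons.
Of 37 reactive astrocyte genes, 36 were tested. WT animals had 4 higher and 5 lower in HIP, 9 of 36, a share near the 21.2% of all tested genes. For Kmt2a-HET these counts were 4 and 7, for Kdm5c-KO they were 9 and 5, and DM animals had 6 higher and 10 lower. The list's share called was 30.6%, 38.9% and 44.4% in the 3 mutants, against 29.6%, 24.0% and 27.1% of all tested genes. In WT, Ptgs2, an immediate-early gene of neurons as well, rose by 2.43, Cd109 rose by 2.35, and Fbln5 fell by 1.76. Of 17 astrocyte-secreted synapse factors, 2 were higher and 4 lower in WT (35.3%; 47.1% to 64.7% in the mutants), with Agt (angiotensinogen) at -2.68, Sparc at -1.68 and Gpc4 at 1.61.

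The comparisons of the mutants with WT ask how loss of either enzyme or of both changed astrocyte genes. Gfap rose in DM hippocampus by 1.60-fold. It was the 1 member of 10 called there (0.881% of all tested genes), and no member was called in the other 5 comparisons of a mutant with WT. In AMY, 0 of 10 passed in Kmt2a-HET (0.00329% of all tested genes), Kdm5c-KO (0.756%) and DM (0.99%), with 2, 1 and 2 members at an unadjusted p under 0.05. Over all genes, 926, 1165 and 1474 had such an unadjusted p. In HIP, 0 of 10 passed in Kmt2a-HET (0.0%) and Kdm5c-KO (1.01%), with 0 and 1 members at an unadjusted p under 0.05. Over all genes, 715 and 1657 had such an unadjusted p. The percentages here and below are shares called after adjustment. In each comparison of genotypes, 571 to 2082 of all genes had an unadjusted p under 0.05. edgeR called 0 members in each of the 6 comparisons with WT, DM hippocampus included.
In HIP, Gfap was 9053, 8557, 7407 and 5240 normalised counts in WT and 13499, 10622, 12311 and 11973 in DM. All 4 DM libraries lay above all 4 WT libraries. The log2 fold change was 0.68 ± 0.16 (SE; 95% interval 0.36 to 0.99; adjusted p = 0.00628, DESeq2), and 0.72 without the libraries numbered 1 (adjusted p = 0.00127). Under ERCC size factors, where the median of all genes was -0.51, it was 0.33 (adjusted p = 0.914), and by edgeR 0.67 (adjusted p = 0.125).
Kdm5c-KO HIP had 10929, 10921, 9548 and 10055 normalised counts of Gfap, also above all WT libraries. The log2 fold change of 0.45 did not pass (adjusted p = 0.23), but did without the libraries numbered 1 (0.52, adjusted p = 0.0896). Kmt2a-HET HIP had 11982, 8774, 7316 and 9068, which overlapped WT, with a log2 fold change of 0.30 (adjusted p = 0.996). With 1 library left out this value ran from 0.15 to 0.40.
Markers of the choroid plexus, the tissue that makes cerebrospinal fluid, varied among these libraries. The DM libraries with the highest Gfap, 1 and 3, had choroid plexus sums of 47 and 51 CPM, and libraries 2 and 4 had 1144 and 1181 CPM. Ependymal markers summed to 11 to 18.9 CPM in WT and to 17.9 to 28.1 CPM in DM HIP, and their part in the result was not tested.

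In AMY, Gfap was 5268, 3815, 3859 and 3584 normalised counts in WT and 6572, 5763, 5286 and 4907 in Kmt2a-HET. Kdm5c-KO had 5950.5, 5128, 5697 and 5085, and DM had 6847, 5194, 5133 and 4982. The WT library numbered 1 lay among the mutants, and the other 3 WT libraries lay below all 12 mutant libraries. The log2 fold changes were 0.45, 0.40 and 0.43 in Kmt2a-HET, Kdm5c-KO and DM, with adjusted p of 0.998, 0.314 and 0.193. Ependymal markers summed to 23.8 to 28.5 CPM in WT AMY and lay above that in 11 of 12 mutant libraries, up to 67.2 CPM. The WT library numbered 1 also had 2468 CPM of oligodendrocyte markers against 4685 to 6025 in the other WT libraries, and 627 CPM of microglia markers against 374 to 439. In DM AMY 4 of 8 choroid plexus markers were called higher than in WT, among them Kl (2.86), Kcnj13 (2.57) and Aqp1 (3.33), and DM library 1, with the highest Gfap, had the highest choroid plexus sum (1882 CPM). Leaving out 1 library took Kl, Kcnj13 and Aqp1 as low as 1.37, 1.20 and 1.24. The calls of Kcnj13 and Aqp1 were lost without DM library 1. The part of these markers in the Gfap values was not tested.
These 3 comparisons depended on how the libraries numbered 1 were treated. Without them, Gfap rose by 0.51 in Kmt2a-HET (adjusted p = 5.92e-06), 0.50 in Kdm5c-KO (adjusted p = 3.71e-07) and 0.45 in DM (adjusted p = 1.14e-05), and leaving out the WT library numbered 1 alone also gave a call in each. With all 16 libraries and a term for those numbered 1, Gfap was called in each as well, at 0.46, 0.42 and 0.43 (adjusted p = 1.26e-05, 1.99e-05 and 8.41e-06). Over the 25 alternatives the adjusted p ran from 3.65e-06 to 1.0, from 3.71e-07 to 1.0 and from 7.79e-06 to 0.999. The interaction of the 2 mutations, which asks on the log2 scale whether DM departs from adding up both single mutants, was called for Gfap without the libraries numbered 1 (-0.55, adjusted p = 0.0262), and with a term for those libraries in the fit (-0.44, adjusted p = 0.0199), while DESeq2 without such a term and edgeR called no member (0.00329% of all tested genes, 1 member at an unadjusted p under 0.05).
Gjb6 in AMY was 910.8, 986.8, 914.8 and 885.6 normalised counts in WT and 1336, 1140.4, 1215.5 and 1168 in Kmt2a-HET, and the groups did not overlap. The log2 fold change of 0.40 had an unadjusted p of 0.000298 and an adjusted p of 0.998. It was called without the WT library numbered 2, and with a term for libraries numbered 1 in the fit (adjusted p = 0.0204). With the libraries numbered 1 left out it was 0.34 and not called (adjusted p = 0.999). In DM, Gjb6 differed from WT by 0.19.
Slc1a2 in HIP was 67059, 92463, 68989 and 78068 normalised counts in WT and 71745, 111083, 104102 and 106739 in DM. The DM library numbered 1 lay within WT and the others above it. The log2 fold change was 0.36 (adjusted p = 0.508), and 0.42 without the libraries numbered 1 (adjusted p = 0.0596). The comparison of DM with Kdm5c-KO gave 0.46 for Slc1a2 without them (adjusted p = 0.0809), while with them 0 members were called (0.0067% of all tested genes, 1 at an unadjusted p under 0.05).
Slc1a3 and Aqp4 in DM HIP had log2 fold changes of 0.22 and 0.29, with adjusted p of 0.467 and 0.518. The remaining members stood between -0.02 and 0.19 in DM HIP. Over all 10, the log2 fold change was above 0 for 9, 7 and 10 members in Kmt2a-HET, Kdm5c-KO and DM AMY, and for 7, 8 and 9 in HIP. The members' medians were small, at 0.11, 0.06 and 0.17 in AMY and 0.09, 0.09 and 0.18 in HIP. Medians of all genes were -0.04, -0.01 and -0.01 in AMY and 0.03, -0.0008 and 0.0015 in HIP. The share of all genes above 0 is not given here. These comparisons share the WT libraries.

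**Figure D3:**
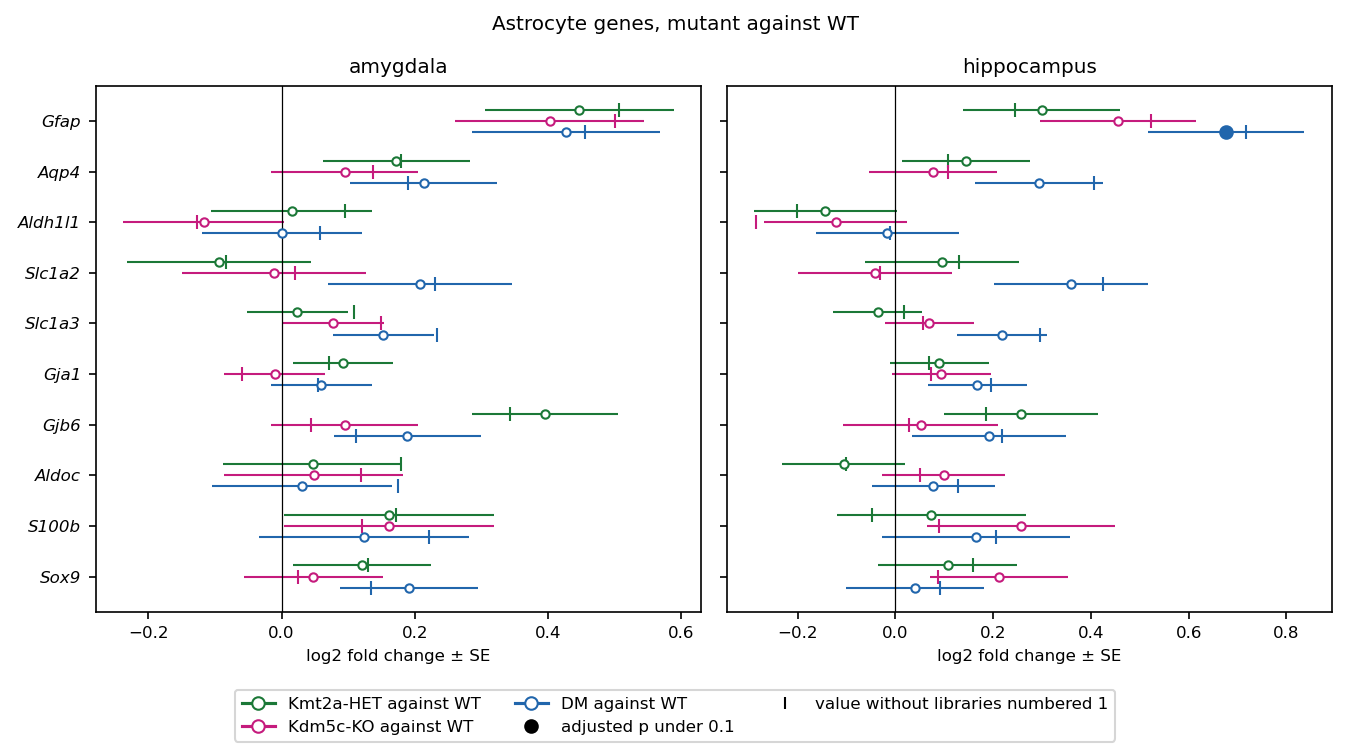
Log2 fold change against WT (x axes, ± SE) of each astrocyte gene (y axis) in the 3 mutants, by region, with filled points for an adjusted p under 0.1 and ticks for the value without libraries numbered 1. The filled point is Gfap in DM hippocampus at 0.68, and Gfap lies at 0.40 to 0.45 in the amygdala.

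The 8 animals that lack Kdm5c were also compared with the 8 that have it, with Kmt2a as a term. In HIP, Gfap rose by 0.42 ± 0.11 (SE, adjusted p = 0.0137, DESeq2), and was the 1 member of 10 called (2.71% of all tested genes). edgeR called it too. Without the libraries numbered 1 the value was 0.50 (adjusted p = 0.000539), and under ERCC size factors it was 0.38 and not called (adjusted p = 1.0). In the same comparison 6 of 8 choroid plexus markers were called higher, among them Kcnj13 (3.89), Kl (1.77) and Prlr (2.60). Ependymal sums were 23.3 to 80.8 CPM in Kdm5c-KO HIP, above all WT libraries, and the part of these markers in the Gfap result was not tested. In AMY 0 members were called (1.65% of all tested genes, 1 at an unadjusted p under 0.05), and Gfap stood at 0.19 (adjusted p = 0.769). For Kmt2a heterozygosity 0 members were called in AMY (0.0% of all tested genes, 2 at an unadjusted p under 0.05) and 0 in HIP (0.0957%, 3 at an unadjusted p under 0.05), with Gfap at 0.24 and 0.26. Over all genes, 934 in AMY and 1722 in HIP had an unadjusted p under 0.05. edgeR called 0 in each of these 3.
DM was compared with Kmt2a-HET as well, and 0 members passed in AMY (0.805% of all tested genes, 1 at an unadjusted p under 0.05) or HIP (0.606%, 2 at an unadjusted p under 0.05). In the comparison of DM with Kdm5c-KO in AMY, and for the interaction in HIP, 0 members passed (0.00329% and 0.0% of all tested genes), and 0 had an unadjusted p under 0.05. edgeR called 0 in each of these 4.
Whether a mutant's change differed between the regions was tested directly. No member differed for Kmt2a-HET (0.0% of all tested genes), Kdm5c-KO (0.0125%) or DM (0.0125%), with 0 members at an unadjusted p under 0.05 and 0 by edgeR in each. For Gfap, a call in the hippocampus and none in the amygdala is thus not a shown difference.
Of 37 reactive astrocyte genes, 34 were tested and 1 rose in Kdm5c-KO HIP (2.94%, against 1.01% of all tested genes), Serpina3n, a secreted protease inhibitor (0.83, adjusted p = 0.0423). In the other 5 comparisons with WT, DM HIP included, 0 reactive genes were called. In the DESeq2 comparisons of 8 animals with 8, Serpina3n was higher without Kdm5c in HIP (0.55, adjusted p = 0.0529, 2.86% of the list against 2.71%). Cd44 was lower without Kdm5c in AMY (-0.48, adjusted p = 0.0162, 2.78% against 1.65%). For Kmt2a heterozygosity, Cd44 was lower in HIP (-0.93, adjusted p = 0.074, 2.86% against 0.0957%), and 0.0% of the list was called in AMY. Both Cd44 calls were lost without the libraries numbered 1. Of 17 secreted synapse factors, 1 was called in DM HIP (5.88%, against 0.881%) and 1 in Kdm5c-KO HIP (5.88%, against 1.01%). Thbs2, a thrombospondin gene, fell by 0.89 in DM HIP (adjusted p = 0.0391), and Agt rose in Kdm5c-KO HIP by 1.23 (adjusted p = 0.0947). Without Kdm5c-KO library 1 the Agt value was 0.69 (adjusted p = 0.338), and that library held 378 CPM of amygdala markers, against 127 to 130 CPM in the other 3. Its part in the Agt result was not tested. Of 20 transcription factors, 0 were called in any of the 6 comparisons with WT. The call of Agt was lost in 16 of the 25 alternatives, and those of Serpina3n and Thbs2 in 5 and 6, among them leaving out WT library 4 and, for Serpina3n, Kdm5c-KO library 2 or 3 or, for Thbs2, DM library 1 or 3.

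Within a genotype the members did not move as 1 block. After the genotype mean was subtracted, the 45 pairs of members had a median correlation of 0.23 over the 16 AMY libraries, with 27 positive, and of 0.30 over the 16 HIP libraries, with 34 positive. The libraries of a pair share their depth and RNA composition. Aldoc and S100b went together (0.69 in AMY and 0.92 in HIP), and Aqp4 and Slc1a2 in AMY (0.85). Gfap and Slc1a2 had correlations of -0.58 and -0.34, which were 0.18 and 0.44 without the libraries numbered 1.
The libraries numbered 1 carried part of this. Gfap was higher in them than the mean of the others of its group in 4 of 4 genotypes of each region, by 0.35 in AMY and 0.31 in HIP on average (log2), and Slc1a2 was lower in 4 of 4, with means of -0.30 and -0.39. Slc1a2, Gja1 and Slc1a3 all have over 8000 exon bases. Gja1 was higher in 4 of 4 (0.09 and 0.13), and Slc1a3 had means of -0.06 and -0.04. Without them the median correlations were 0.28 and 0.26.

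**Figure D4:**
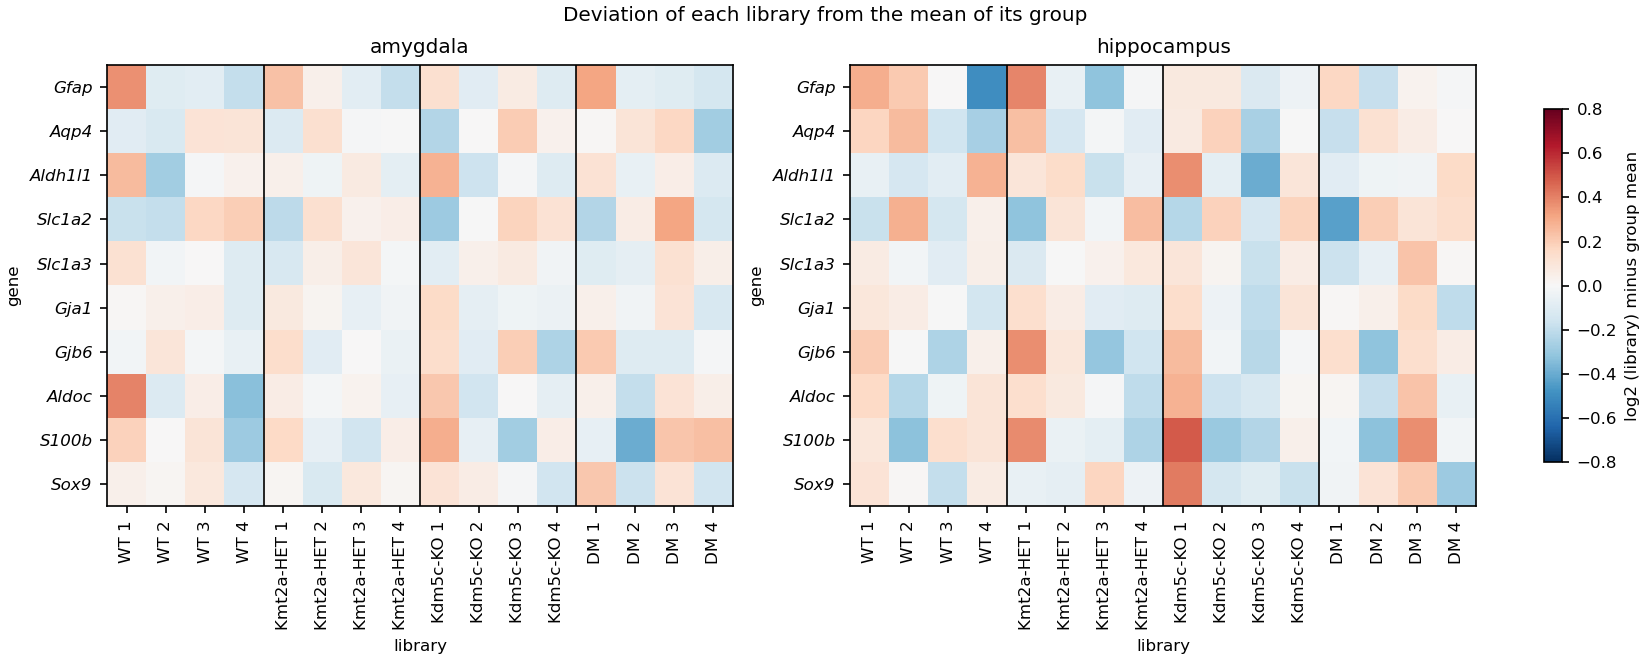
Log2 level of each astrocyte gene (y axis) in each library (x axis) minus the mean of its group, with red above and blue below the group mean. Gfap is red and Slc1a2 blue in the libraries numbered 1, on average 0.35 above and 0.30 below the other libraries in the amygdala.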

How the data were processed

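mRNA was sequenced from the amygdala and hippocampus of 16 mice, as 32 libraries with ERCC spike-in RNA. The authors deposited estimated counts per gene and transcript (expected counts, 7.07% of the gene values not whole), which were rounded here. Per the labels' processing notes, STAR 2.5.3a, Subread 1.5.0 with featureCounts, deepTools 3.1.3 and DESeq2 1.14.1 were used with mm10. The program that gave the expected counts is not given in the sources used here.

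Genotypes were compared with DESeq2 1.42.0 (R 4.3.3; Wald test, 16 libraries of a region, no low-count filter beforehand, DESeq2's independent filtering on, adjusted p under 0.1 over the 19056 to 30355 genes it left in AMY and 19302 to 29841 in HIP), and regions and differences of effects with 1 fit over 8 groups. Levels are counts over DESeq2 size factors of all 32 libraries. edgeR 4.0.16, TMM and ERCC size factors, a low-count filter and left-out libraries were alternatives. Depth was 19215503 to 27798980 counts per library. No pair of replicates differed by as little as sampling noise (chi-square per gene of 3.89 or more over 48 pairs). The tests were checked on simulated counts in 4 settings. Of genes changed 1.3-fold, 20% to 32% were called, and of those changed 1.5-fold, 56% to 78%. Of genes changed 2-fold, 88% to 98% were called. Changes of 1.3-fold were thus mostly missed.

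The regions are paired because they came from the same mice (median correlation of deviations 0.161; 14 of 16 mice over 0.1). The members and lists were chosen with earlier results of these data known. All members are named, and 1 gene of the other lists is not reported here; of the other lists, at most 3 called genes by adjusted p in each comparison; for likeness, the 5 genes per region with the highest correlation.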

Additional observations from a re-analysis of the deposited data

Results flagged for a closer look

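In 7 of the 80 groups of 4 libraries (10 genes, 8 groups), 1 library lay far from the other 3, with a gap above Dixon's 95% critical value for the group's range. Chance gives about 1 in 20 groups. Of the 7, 4 were libraries numbered 1: Gfap in WT AMY at 5268 normalised counts, Gfap in DM AMY at 6847, Gja1 in Kdm5c-KO AMY at 4836, and Sox9 in Kdm5c-KO HIP at 1573. The others were Aldh1l1 in WT HIP library 4 at 1959.9, S100b in WT HIP library 2 at 850.1, and Sox9 in Kmt2a-HET HIP library 3 at 1247.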

How the results depend on the processing

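Without the libraries numbered 1, the number of astrocyte genes called was 1 in Kmt2a-HET, Kdm5c-KO and DM AMY, in the AMY interaction, in Kdm5c-KO HIP and in DM against Kdm5c-KO HIP, and 2 in DM HIP. In the same order, 0.00672%, 0.731%, 0.848%, 0.00336%, 0.837%, 0.251% and 1.11% of all tested genes were called. Shares under the other settings are not given here. With the replicate block, and with a term for libraries numbered 1, the number of astrocyte genes called was 2 in Kmt2a-HET AMY and 2 in DM HIP, and 1 in the other 5. The block also gave 1 for Kmt2a heterozygosity in HIP. The replicate numbers do not pair the genotypes, since not every pair of same-numbered libraries correlated above 0.1; those numbered 1 did in 6 of 6 pairs in AMY and 4 of 6 in HIP. Leaving out 1 library gave 0 to 1 in the 3 AMY comparisons with WT and in DM against Kdm5c-KO HIP, 1 to 2 in DM HIP and for Kdm5c loss in HIP, and, between regions, 2 to 5 in WT, 4 to 6 in Kmt2a-HET, 2 to 5 in Kdm5c-KO and 2 to 5 in DM. edgeR gave 0 in DM HIP. An adjusted p under 0.05 gave 3 between regions in DM. ERCC size factors gave 0 in DM HIP and for Kdm5c loss in HIP, and 2, 1, 2 and 1 between regions in WT, Kmt2a-HET, Kdm5c-KO and DM.

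ERCC size factors also turned directions (log2): Gfap in DM HIP against Kdm5c-KO, -0.5033, against Kmt2a-HET, -0.0766, and for Kmt2a heterozygosity, -0.0506; Gpc5 in DM against Kmt2a-HET HIP, -0.14 (0.28 and called with DESeq2 size factors); Kcnj10 for Kmt2a heterozygosity in HIP, -0.17 (0.25 and called). Between regions, Aldh1l1 was 0.63, 0.0071, 0.54 and 0.0719 and Gjb6 0.42, 0.0394, 0.53 and 0.11 in WT, Kmt2a-HET, Kdm5c-KO and DM, S100b 0.33 in WT and 0.0228 in DM, Atp1b2 0.39 in WT, and Aldoc 0.13 in Kmt2a-HET. The cause was not tested. Spike-in took 0.0503% to 0.511% of counts. Lengths by transcript were added after seeing the data.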

Other observations

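The genes whose levels were most like the mean of the 10 astrocyte genes over the 16 libraries of a region differed between the regions. In HIP these were Plpp3 (Pearson r = 0.899), Mob1a (0.882), Serping1 (0.865), Rida (0.844) and Kctd5 (0.842), of 11891 genes. In AMY these were Mafk (0.82), Zfp36l1 (0.817), St3gal4 (0.808), Ctdsp1 (0.789) and Ctso (0.788), of 12052 genes. Plpp3, a lipid phosphatase, is also an astrocyte gene, and of 30 other astrocyte genes 7 were among the 50 most like genes in HIP and 1 in AMY. The order was not firm: under Spearman correlation 1 of the 5 stayed among the first 5 in HIP and 2 in AMY, and without the libraries numbered 1 these counts were 2 and 1. All libraries of a region share depth and composition, so these values are descriptions.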
